A study of Mus musculus with 12 samples.

Results

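Gene expression in MEFs made devoid of mtDNA with ditercalinium (rho0) was compared with that of the parental MEF line TM6. Members were taken by the library name: the 3 rho0 columns and the 3 TM6 columns of the gene count table, which make 6 of the 12 libraries of the series, with all genes of the table. Mouse embryonic fibroblasts (MEFs) of the C57BL6/J strain had been immortalized with the SV-40 large T antigen. Both lines carry the genotype neo-flox/neo-flox at *Pnpt1*, the gene of the exoribonuclease PNPase, and in neither line had Cre acted on it. TM6 received no drug. The rho0 line was derived from TM6 by 3 weeks of growth in ditercalinium (ditercalinium dichloride dihydrochloride, 750 ng/mL), after which a colony that had grown from a single cell was picked. Both lines were kept in uridine at 50 µg/mL. The other 6 libraries, from lines without PNPase, entered 1 alternative fit, in which all libraries share an estimate of the spread, and no other comparison. Each library came from a separate culture of its line, so that the spread between replicates is that of cultures, and the rho0 line is 1 clone: a difference that came with the clone and one that came with the loss of mtDNA cannot be told apart.

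mtDNA encodes core subunits of the respiratory chain and of ATP synthase, with the rRNAs and tRNAs that translate them, whereas all other mitochondrial proteins are products of nuclear genes. Ditercalinium is a DNA intercalator that accumulates in mitochondria and stops mtDNA replication, and cells that survive the loss of mtDNA live by glycolysis and need uridine, because pyrimidine synthesis passes through an enzyme coupled to the respiratory chain. In mammalian cells a failing respiratory chain is known to be relayed to the nucleus by the integrated stress response, in which phosphorylation of eIF2α favours translation of the transcription factor ATF4.

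The deposited expected counts summed to between 48899971 and 66533389 per library (median 58642770), and *Rn45s*, the precursor of cytosolic rRNA, held 13.6% to 19.6% of them. Libraries of the same line correlated with Pearson's r of 0.991 to 0.996 across genes, and libraries of different lines with 0.909 to 0.926. The first rho0 library stood apart from the other 2: its counts differed from theirs with a chi-square per gene of 83.9 and 63.5, while the others differed by 4.56 and the TM6 libraries by 18.9 to 38.4. Fibroblast markers were present in all 6 libraries, at a summed level, scaled for transcript length and depth as TPM, of 6812 to 7013 in TM6 and 3921 to 4026 in rho0. Of 12 that could be tested, 9 were lower in rho0 and *Fn1*, which encodes fibronectin, was higher. In bulk RNA fewer cells of a type and less RNA per cell cannot be told apart. *Thy1*, *Lum* and *Fap*, also fibroblast markers, were at or near 0 in both lines. Summed markers of endothelium and skeletal muscle stayed at or below 0.6 TPM in every library, and those of immune cells at or below 5.57. Epithelial markers summed to 45.8 to 48.7 TPM in TM6 and 70.2 to 73.7 in rho0, nearly all from *Krt19* and *Krt18*, while *Epcam* and *Cdh1* were near 0. Neural markers gave 18.9 to 20.5 TPM, and those of adipocytes 9.45 to 11.7 TPM. These sums hold members that went opposite ways. Of 4 neural markers tested 2 were higher in rho0 and 2 lower. Of those of adipocytes *Pparg* was higher and *Fabp4* lower, at a mean of 4.49 TPM in TM6 and 0.08 in rho0.

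The files used here list 0 entries encoded by mtDNA, so its loss was not analysed from its own transcripts. A nuclear entry, however, resembles them. *Gm20594* lies on chromosome 6 (79818031 to 79818364 in mm10, plus strand), where RefSeq gives it the synonym Mtrnr2l. Its GENCODE transcript, which is longer than this counted stretch, aligned with the 16S rRNA of mtDNA. The alignment covered 435 of the 449 bases of that transcript, with 88.5% identity. No other tested gene had a match of at least 85% identity over at least 100 bases to an mtDNA transcript. *Gm20594* had 112, 232 and 481 normalized counts (counts scaled to the mean library) in the 3 TM6 libraries and 0 in each rho0 library, at least 81.3-fold lower in rho0 against a floor of 3 counts per library. Whether these reads came from mtDNA or from the nuclear copy was not tested, and the alignment was made after the values were seen.

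Of 13636 genes with enough counts to test, 5679 were differentially expressed (DEGs, with adjusted p under 0.01 and a log2 fold change past 0.5 in either direction), 2615 of them higher and 3064 lower in rho0. The DEGs were 41.6% of the genes tested, with 19.2% higher and 22.5% lower, and the 3 rho0 libraries did not overlap the 3 TM6 libraries in 74.5% of all tested genes. These shares are the background against which every gene group below is to be read. The median log2 fold change over all tested genes was -0.01 and the median size was 0.48. Large differences were more often losses: 180 DEGs were lower by more than 5 on the log2 scale and 51 were higher by as much, while past a log2 fold change of 1 the numbers were 1453 and 1332. Among the 500 genes with the highest mean TPM, 58 were higher and 151 lower. Without the first rho0 library there were 6198 DEGs.

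**Figure D1:**
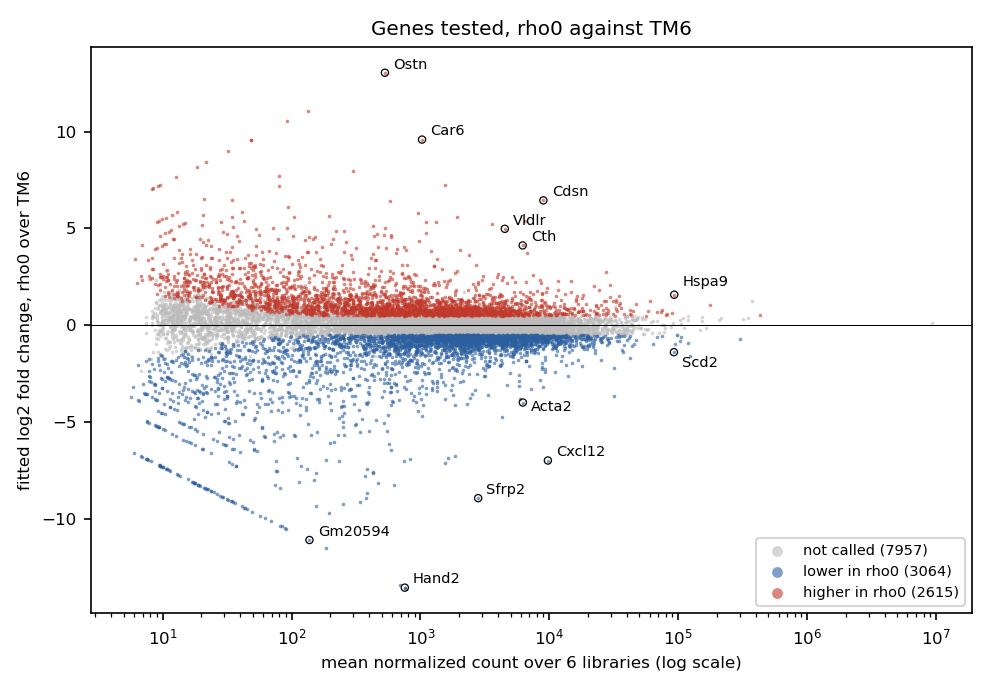
Each point is 1 of the 13636 genes tested, with its mean normalized count over the 6 libraries on a log axis and its fitted log2 fold change (rho0 over TM6) on the vertical axis. Red marks 2615 genes higher in rho0 and blue 3064 lower, and the circled genes run from *Ostn*, at the top, to *Hand2*, at the bottom. Genes at 0 in every library of a line form the diagonal rows, where the fitted value depends on the prior count.

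The integrated stress response was the group with the highest median of the 30 lists examined. Of its 26 tested members 19 were higher and 2 lower in rho0, with a median log2 fold change of 1.30. All 7 of its transcription factors were higher. *Atf4* counted 15577, 15480 and 15428 in the TM6 libraries and 33004, 29177 and 30340 in those of rho0 (normalized counts) (log2 fold change 0.99 ± 0.06 (SE), adjusted p = 8.80e-07). *Atf5*, a relative of *Atf4* tied to mitochondrial stress, was 2.23-fold higher. *Ddit3*, which encodes the stress factor CHOP, went from 1084, 983 and 1024 to 4898, 4467 and 4396, a 4.45-fold difference. *Ddit3* and *Atf5* each overlap tested genes on the opposite strand. So do *Eif2ak1*, *Shmt2*, *Npc1*, *Polg*, *Primpol*, *Uckl1*, *Pfkp*, *G6pdx*, *Mmp19*, *Tenm4* and *Xist*, described below. Whether the counting used strand is not given in the sources used here, so the values of all of these are uncertain to that extent. In none of these genes did the libraries of the lines overlap, which was also so in 74.5% of all tested genes. That does not tell from which strand the reads came.

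Of the targets and feedback genes of the pathway 12 of 13 were higher, with a median of 1.96 beside 1.16 for the factors. *Trib3*, a pseudokinase induced by ATF4 and CHOP, was at 1022, 890 and 905 normalized counts in TM6 libraries and at 13769, 11965 and 11986 in rho0 libraries (log2 fold change 3.74 ± 0.08 (SE), adjusted p = 2.86e-09). *Vldlr*, a lipoprotein receptor, rose from 286, 305 and 237 to 8380, 8998 and 8863, the widest difference of the list, at 31.7-fold. *Gdf15*, which encodes a secreted cytokine of mitochondrial stress, rose 16.2-fold, from 68.5, 51.7 and 67.3 to 995, 1043 and 1005. *Chac1*, which encodes a glutathione-degrading enzyme, was 3.89-fold higher. *Sesn2*, a stress-induced regulator of growth signalling, was 6.36-fold higher. *Fgf21*, the other mitokine, had at most 11 counts in any library and was not tested. By contrast, none of the 6 genes of the kinases and relay that act before ATF4 was higher. *Eif2ak3*, the kinase PERK, fell by 1.07 on the log2 scale, and *Eif2ak1*, the kinase HRI, stood at -0.50, a call that was lost in 8 of 13 alternative fits.

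ATF4 pairs with C/EBP proteins on a composite element, and the letters TGATGNAA were searched on both strands of the RefSeq promoters (250 bases before to 50 after each start, GRCm38.p6). They were found for 5 of the 12 stress response targets that had a promoter in the table, namely *Trib3*, *Chac1*, *Vldlr*, *Asns* and *Slc7a11*. The counts were 5 of 16 for genes of amino acid supply, where *Asns* and *Slc7a11* are the same genes again, and 5 of 13 for cytosolic tRNA synthetases. Of all 10823 tested genes with a promoter, 2.84% had them, and 3.97% of all promoters in the table. A match is a description of these letters only. To let the match be seen in its surroundings, the promoters of 4 genes from these lists are shown as examples, with the match in capitals on whichever strand it lies:
Trib3 (chr2:152344011-152344310, minus strand): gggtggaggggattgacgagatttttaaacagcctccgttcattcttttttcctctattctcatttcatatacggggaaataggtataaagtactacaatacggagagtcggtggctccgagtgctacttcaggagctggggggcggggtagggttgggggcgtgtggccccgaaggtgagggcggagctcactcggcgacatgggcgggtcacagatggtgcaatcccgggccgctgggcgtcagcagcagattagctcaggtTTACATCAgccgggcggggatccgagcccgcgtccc
Chac1 (chr2:119350992-119351291, plus strand): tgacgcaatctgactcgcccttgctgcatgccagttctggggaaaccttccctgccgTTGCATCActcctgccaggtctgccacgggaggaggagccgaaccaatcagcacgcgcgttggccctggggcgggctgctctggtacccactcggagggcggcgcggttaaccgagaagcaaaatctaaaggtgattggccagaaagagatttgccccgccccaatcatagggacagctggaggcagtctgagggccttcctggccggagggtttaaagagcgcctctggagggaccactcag
Asns (chr6:7693160-7693459, minus strand): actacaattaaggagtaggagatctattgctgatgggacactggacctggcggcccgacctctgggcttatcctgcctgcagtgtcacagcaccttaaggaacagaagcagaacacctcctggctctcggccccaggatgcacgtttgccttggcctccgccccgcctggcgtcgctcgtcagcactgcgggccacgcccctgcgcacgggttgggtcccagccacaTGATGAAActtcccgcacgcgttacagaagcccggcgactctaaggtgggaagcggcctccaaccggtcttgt
Gars (chr6:55037751-55038050, plus strand): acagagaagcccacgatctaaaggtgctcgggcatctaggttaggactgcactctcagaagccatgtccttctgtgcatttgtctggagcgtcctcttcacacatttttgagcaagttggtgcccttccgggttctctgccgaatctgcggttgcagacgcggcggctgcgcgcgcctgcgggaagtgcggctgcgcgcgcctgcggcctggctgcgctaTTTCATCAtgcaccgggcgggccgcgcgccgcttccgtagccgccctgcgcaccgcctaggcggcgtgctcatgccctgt

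Amino acid supply had the next highest list median. In this list 15 of 24 members were higher and *Pycrl* alone was lower, with a median of 1.03. *Cth*, the enzyme that makes cysteine from cystathionine, gave 639, 697 and 683 normalized counts across TM6 and 12378, 11274 and 11564 across rho0 (log2 fold change 4.12 ± 0.07 (SE), adjusted p = 8.60e-10). *Asns*, asparagine synthetase, was 3.07-fold higher. Of 11 transporters 8 were higher and 0 lower. *Slc7a3*, a carrier of cationic amino acids, was 6.64-fold higher, although it lies on the X chromosome, where most called genes were lower. *Slc7a11*, the cystine carrier, was 2.86-fold higher. *Pycrl* fell by 0.83 on the log2 scale, and by 0.43 once the median of its chromosome 15 was removed, which ends the call.

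Cytosolic tRNA synthetases were higher in 11 of 20 cases and lower in 0, with a median of 0.59. *Wars*, for tryptophan, counted 3942, 4173 and 3919 in the TM6 libraries and 20738, 18538 and 19257 in those of rho0 (normalized counts). *Lars*, for leucine, was 4.22-fold higher. In serine and one-carbon metabolism 6 of 17 members were higher and 3 lower. The higher ones included the mitochondrial folate enzymes *Aldh1l2*, with 6948, 7068 and 6967 normalized counts in TM6 and 47209, 47453 and 48436 in rho0, *Mthfd2* at 3.30-fold, and *Shmt2* at 2.30-fold. *Mthfd2l*, the paralogue of *Mthfd2*, fell by 0.85 on the log2 scale. The first enzyme of serine synthesis, *Phgdh*, had a log2 fold change of 0.45, under the threshold of 0.5, and 0.64 with chromosome medians removed. *Psat1*, the next enzyme, had 0.24 and was not called.

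**Figure D2:**
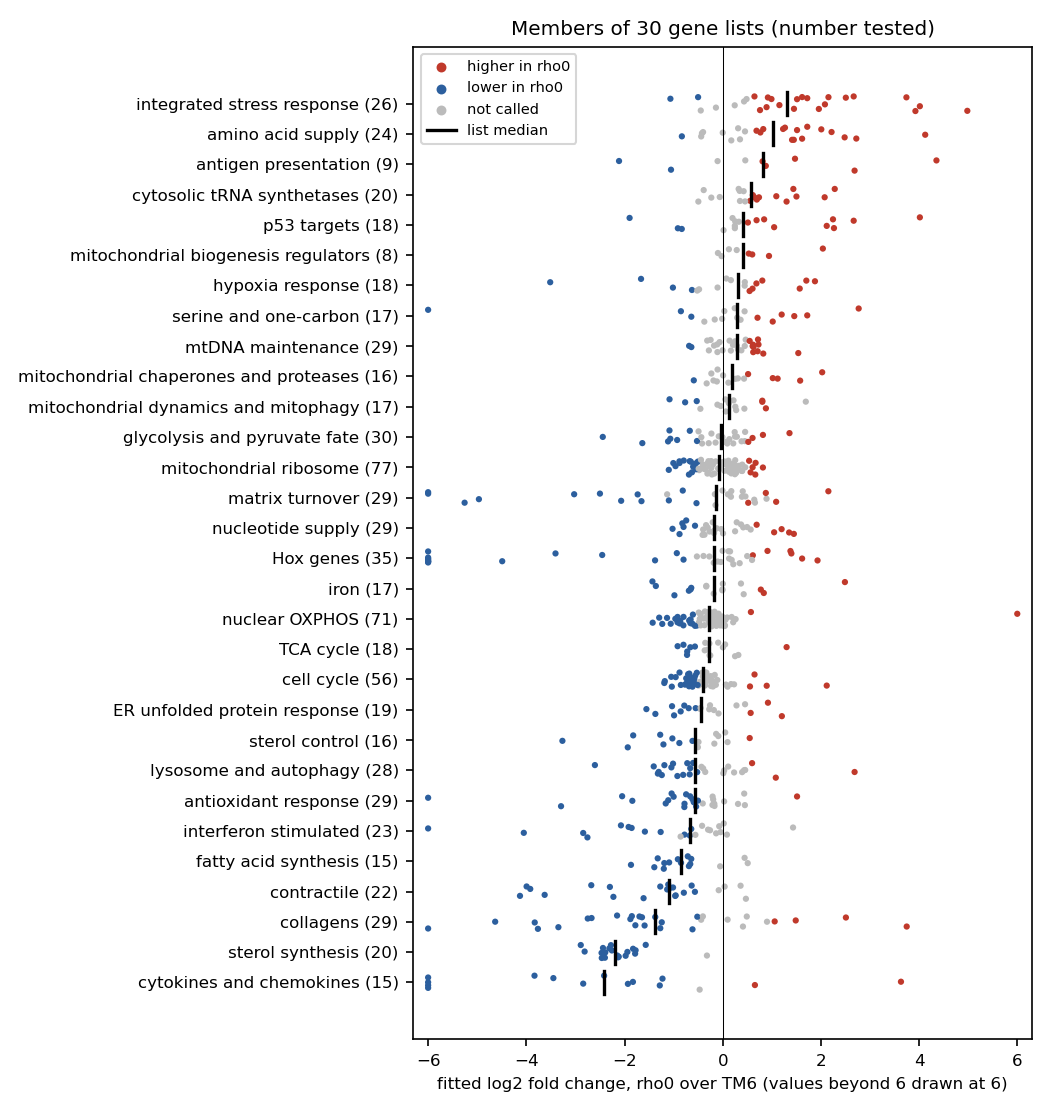
Members of the 30 gene lists, 1 row per list with the number tested, ordered by the list median (black bar) of the fitted log2 fold change, rho0 over TM6. Integrated stress response (median 1.30) and amino acid supply (1.03) stand at the top, and sterol synthesis (-2.20) and cytokines (-2.42) at the bottom. Values beyond 6 are drawn at 6.

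Sterol synthesis moved the other way. In this pathway acetyl-CoA is built through mevalonate into squalene, which is then cyclized and trimmed to cholesterol. Of 20 tested enzymes 19 were lower in rho0 and 0 were higher, and the median was -2.20. *Hmgcs1*, which commits acetyl-CoA to the pathway, was at 17536, 19452 and 19072 normalized counts in TM6 libraries and at 3470, 3590 and 3565 in rho0 libraries (log2 fold change -2.40 ± 0.06 (SE), adjusted p = 4.71e-09). After squalene, 11 of 12 enzymes were lower. *Cyp51*, the lanosterol demethylase, went from 14082, 15502 and 15034 to 2120, 2114 and 2119. *Nsdhl*, a sterol dehydrogenase later in the chain, had the largest loss of the list and fell by 2.89 on the log2 scale. It lies on the X chromosome, and removing the median of that chromosome leaves -2.10. *Tm7sf2*, a sterol reductase, was the member that was not called, at -0.32, and it overlaps *Vps51* on the same strand. With all chromosome medians removed the list median was -1.97.

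SREBP-2, a transcription factor released when sterol is scarce, drives the enzymes and several genes that control sterol levels. *Insig1*, which holds SREBP in the endoplasmic reticulum, gave 13754, 13902 and 13676 normalized counts across TM6 and 3780, 3460 and 3577 across rho0. *Srebf2*, which encodes SREBP-2 itself, was 2.31-fold lower. *Abca1*, the sterol exporter driven by LXR and not by SREBP, fell as well, from 370, 347 and 311 to 35.8, 37.2 and 33.7. In all, 8 of 16 genes of sterol control were lower and *Npc1* was higher, at 0.55, which became 0.15 once the median of its chromosome was removed. In fatty acid synthesis 12 of 15 genes were lower and 0 higher, with a median of -0.85. *Elovl6*, the elongase of saturated chains, was 3.65-fold lower. *Scd2*, a desaturase, went from 132881, 138519 and 130644 normalized counts to 52738, 49414 and 50935. *Fasn*, the synthase itself, was 1.58-fold lower.

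SREBPs bind sterol elements, commonly beside the CCAAT box of NF-Y. Among 15 sterol synthesis enzymes with a RefSeq promoter, 14 held CCAAT on either strand, compared with 43.4% of tested genes and 37.4% of all promoters. The share was not particular to genes lower in rho0: 9 of 12 stress response targets (75%), most of them higher, held CCAAT. Of the sterol control genes with a promoter 6 of 12 (50%) held it. The sterol element was searched as TCACNCCAC, and among the 15 enzymes only *Hmgcs1* held it, against 1.36% of tested genes and 1.24% of all promoters. Of the 12 sterol control genes 0 held the sterol element. Since CCAAT is short, a match to it is common, and no match says only that the letters are absent from this window. The promoters of the enzyme that opens the pathway and of *Cyp51* are shown, with the CCAAT box, on whichever strand it lies, and the sterol element of *Hmgcs1* in capitals:
Hmgcs1 (chr13:119690101-119690400, plus strand): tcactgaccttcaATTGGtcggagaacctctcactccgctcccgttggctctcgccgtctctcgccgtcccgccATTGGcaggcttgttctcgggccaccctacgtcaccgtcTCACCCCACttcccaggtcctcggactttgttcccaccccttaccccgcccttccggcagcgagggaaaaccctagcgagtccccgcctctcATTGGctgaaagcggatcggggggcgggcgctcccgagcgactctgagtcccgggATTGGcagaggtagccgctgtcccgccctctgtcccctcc
Cyp51 (chr5:4104648-4104947, minus strand): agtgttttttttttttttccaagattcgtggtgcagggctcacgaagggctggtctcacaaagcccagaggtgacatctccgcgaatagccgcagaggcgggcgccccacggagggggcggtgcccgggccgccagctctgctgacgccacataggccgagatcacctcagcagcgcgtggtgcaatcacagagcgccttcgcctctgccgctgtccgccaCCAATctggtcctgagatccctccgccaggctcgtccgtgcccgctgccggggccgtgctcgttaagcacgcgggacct

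**Figure D3:**
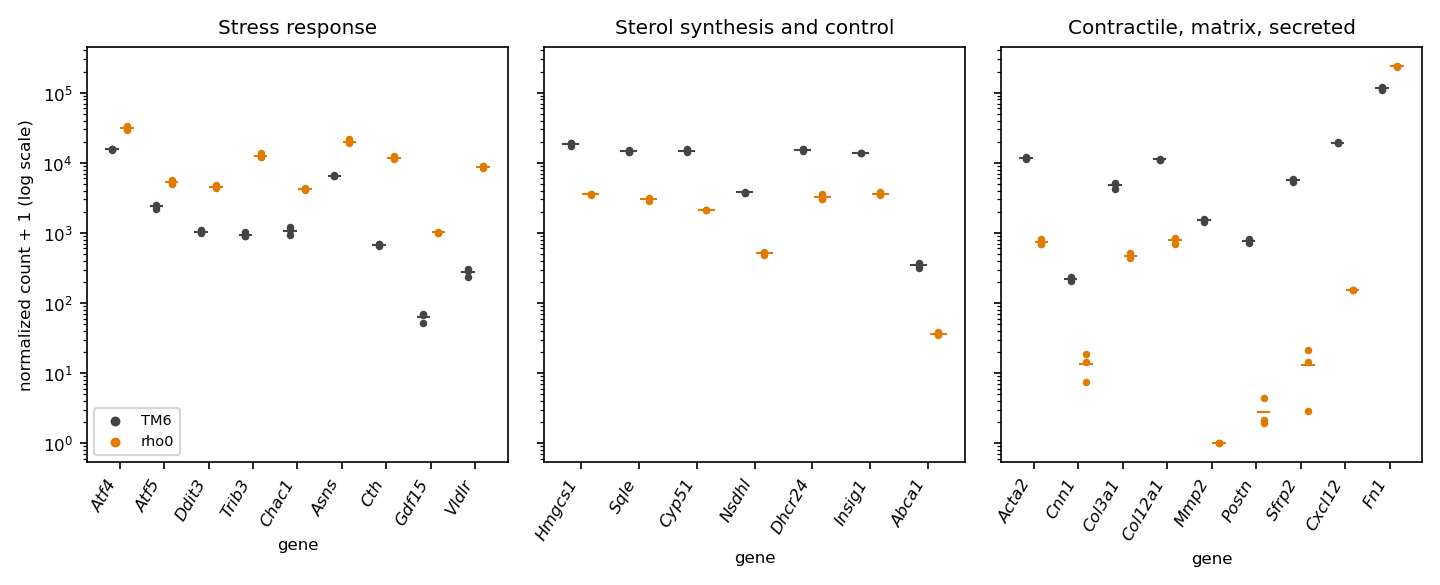
Normalized counts plus 1 (log axis) of genes from 3 sets of lists in each of the 3 TM6 libraries (grey) and 3 rho0 libraries (orange), with the mean of each line as a bar. The lines do not overlap in any of these genes, nor in 74.5% of all tested genes. The widest spread among rho0 libraries is in genes with few counts, such as *Sfrp2* (1.88, 20.3 and 13.5 normalized counts).

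Nuclear genes of the respiratory chain, which lacks its mtDNA-encoded partners in a rho0 cell, had mostly small negative values. Of 71 tested OXPHOS subunits 2 were higher and 19 lower, which is 29.6% called beside 41.6% of all tested genes, 61 had a negative value, and the median was -0.28. By complex, 6 of 36 subunits of complex I, 3 of 9 of complex III, 4 of 11 of complex IV and 6 of 15 of complex V were lower. *Uqcrh*, a hinge protein of complex III, counted 3861, 4199 and 3897 in the TM6 libraries and 1800, 1527 and 1547 in those of rho0 (normalized counts). *Cox7b*, a subunit of complex IV on the X chromosome, fell by 1.43 on the log2 scale, and by 0.64 with that chromosome's median removed. The higher subunits were *Ndufa7*, at 0.57, and *Cox6a2*, the isoform of heart and skeletal muscle, with 2.63, 0.975 and 3.01 normalized counts in TM6 and 714, 550 and 524 in rho0. The call of *Ndufa7* was lost in 3 of 13 alternative fits.

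Other mitochondrial systems had genes called in both directions. Called members were 28.6% of mitochondrial ribosomal proteins, 38.9% of TCA cycle genes and 37.5% of chaperones and proteases, beside 41.6% of all tested genes. Of 77 mitochondrial ribosomal proteins, which translate mtDNA messages, 6 were higher and 16 lower, and the median was -0.08, a sign that turned without the second rho0 library. In the TCA cycle 6 of 18 genes were lower and *Suclg2*, the GTP-forming subunit of succinyl-CoA ligase, was higher, at 2.46-fold. *Cs*, citrate synthase, was 1.65-fold lower. Mitochondrial chaperones and proteases held some of the largest gains of the organelle: 5 of 16 were higher and *Phb* was lower. *Lonp1*, the matrix protease, was at 8757, 8788 and 8526 normalized counts in TM6 libraries and at 37136, 33925 and 35144 in rho0 libraries (log2 fold change 2.03 ± 0.06 (SE), adjusted p = 9.27e-09). *Hspa9*, the import motor chaperone mortalin, went from 43686, 48458 and 47924 to 144801, 134352 and 138911. *Hspd1*, the chaperonin HSP60 that is the usual marker of mitochondrial protein stress, was at 0.26 on the log2 scale and was not called.

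The genes that keep, copy and transcribe mtDNA were called about as often as other genes, and more were higher than lower. Of 29, 10 were higher, 2 lower and 17 not called, with a median of 0.29. That is 41.4% called, beside 41.6% of all tested genes. The factor that packs mtDNA, *Tfam*, gave 3094, 3301 and 3239 normalized counts across TM6 and 3174, 2929 and 3117 across rho0, and the lines overlapped (log2 fold change -0.06 ± 0.05 (SE), adjusted p = 0.299). The polymerase gene *Polg* stood at -0.25 and the mitochondrial RNA polymerase gene *Polrmt* at -0.28, neither called. *Primpol*, a primase-polymerase of nucleus and mitochondria, had the largest difference, from 488, 495 and 538 to 1311, 1626 and 1489. *Ssbp1*, the single-strand binding protein of mtDNA, was 1.65-fold higher. *Rnaseh1*, which removes RNA from hybrids, was 1.77-fold higher, but its log2 value of 0.83 became 0.30 with the median of chromosome 12 removed. *Pnpt1*, unrecombined in both lines, was 1.66-fold higher in rho0.

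In nucleotide supply 5 of 29 genes were higher and 6 lower, with a median of -0.18. Of 7 genes of uridine salvage 2 were higher and 1 lower, with a median of 0.01. The higher ones, *Upp1* and *Uckl1*, which act on uridine, were 2.73-fold and 2.56-fold higher. *Rrm2*, the ribonucleotide reductase subunit of dividing cells, was 1.84-fold lower, while *Rrm2b*, the subunit used outside S phase, was 2.07-fold higher. The enzymes of de novo pyrimidine synthesis *Cad*, *Dhodh* and *Umps* were at -0.18, 0.25 and -0.03, and none was called. Among regulators of mitochondrial biogenesis 4 of 8 were higher and 0 lower, and *Myc*, a driver of growth, rose 1.92-fold. The coactivator *Ppargc1b*, at 0.60, lost its call in 6 of 13 alternative fits, and *Ppargc1a* had at most 20 counts in any library and was not tested. In mitochondrial dynamics and mitophagy 3 of 17 genes were higher and 3 lower, among them *Sqstm1*, the autophagy receptor p62, at 1.84-fold higher, and *Mfn1*, which fuses outer membranes, at 1.70-fold lower.

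Genes of glycolysis, on which a cell without respiration depends for ATP, and of pyruvate fate were called about as often as other genes. Of these 30 genes 4 were higher and 8 lower, 40.0% beside 41.6% of all tested genes. The median was -0.04, a sign that turned without the second rho0 library. Of 18 genes of glucose uptake and glycolysis 3 were higher and 3 lower, with a median of 0.17. Pyruvate fate gave 1 of 12 higher and 5 lower, with a median of -0.46. *Hk2*, the inducible hexokinase, counted 3884, 3929 and 3979 in the TM6 libraries and 10152, 10000 and 10125 in those of rho0 (normalized counts). *Pfkp*, a phosphofructokinase, was 1.76-fold higher. The glucose carrier *Slc2a1* was at 0.45, *Ldha* at 0.25 and *Pkm* at -0.15, and none was called. *Pdk4*, a kinase that inhibits pyruvate dehydrogenase, was 5.43-fold lower, and *Slc16a3*, the lactate exporter of glycolytic cells, was 2.17-fold lower. Hypoxia-responsive genes gave 7 of 18 higher and 4 lower: *Vegfa*, an endothelial growth factor, went from 2958, 2579 and 2794 to 8231, 9630 and 9281, while *Adm*, the vasodilator adrenomedullin, was 3.17-fold lower.

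Antioxidant genes were lower in 18 of 29 cases and higher in 1, with a median of -0.57. The exception was *Slc7a11*, which is also in the stress response list. *Sod3*, the extracellular superoxide dismutase, was at 790, 760 and 679 normalized counts in TM6 libraries and at 1.88, 5.64 and 2.24 in rho0 libraries. *Sod2*, its mitochondrial counterpart, was 1.68-fold lower, and *G6pdx*, which makes NADPH and lies on the X chromosome, was 4.14-fold lower. Its log2 value of -2.05 became -1.26 with that chromosome's median removed. In the unfolded protein response of the endoplasmic reticulum 8 of 19 genes were lower and 3 higher. The chaperone calreticulin (*Calr*) was 2.59-fold lower, the sensor gene *Atf6* 2.31-fold higher, and *Hspa5*, the chaperone BiP, stood at -0.18 and was not called. Lysosome and autophagy genes were lower in 15 of 28 cases and higher in 3. *Tfeb*, which switches on lysosomal genes, went from 781, 779 and 689 to 130, 128 and 112, whereas *Ctsk*, which encodes a collagen-degrading protease, was 6.43-fold higher. Iron genes gave 3 of 17 higher and 6 lower, including the importer *Slc11a2*, at 2.57-fold lower.

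More cell cycle genes were lower than higher, and most genes of mitosis were lower. Of 56 genes 24 were lower and 4 higher, with a median of -0.41. All 20 genes of mitosis had a negative value and 14 were lower. *Plk1*, a mitotic kinase, gave 5925, 5925 and 5946 normalized counts across TM6 and 2792, 2451 and 2556 across rho0. *Mki67*, the proliferation marker, was 1.58-fold lower. Of 20 genes of DNA replication 5 were lower and *Mcm2*, a subunit of the replicative helicase, was higher, at 0.56, or 0.44 with chromosome medians removed. *Cdkn1a*, the inhibitor p21, went up from 1035, 927 and 900 to 4398, 3935 and 4105 (log2 fold change 2.12 ± 0.07 (SE), adjusted p = 1.85e-08). Among p53 targets 9 of 18 were higher and 3 lower, with a median of 0.42, and *Sesn2* and *Gdf15* are in this list and in the stress response list. *Mdm2*, a standard p53 target, was at 0.25 and was not called, and large T antigen, which binds p53, is in both lines.

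Most interferon-stimulated genes and chemokines were lower, while most genes of antigen presentation were higher. Of 23 interferon-stimulated genes 12 were lower and 0 higher, with a median of -0.67, and 8 of 13 effectors were lower, with a median of -1.58. *Ifit1*, an RNA-binding effector, counted 658, 633 and 664 in the TM6 libraries and 88.5, 99.3 and 102 in those of rho0 (normalized counts). *Cxcl10*, an interferon-induced chemokine, was 7.17-fold lower. Cytokines and chemokines had the lowest median of the lists, -2.42, with 12 of 15 lower and 2 higher. *Cxcl12*, which recruits leukocytes and is typical of stroma, was 127-fold lower, at 19782, 19138 and 19057 against 151, 151 and 154. *Ccl7*, a monocyte chemokine, reached 760, 760 and 751 in the TM6 libraries but at most 2.26 in rho0. *Kitl*, the ligand of KIT, was 1.58-fold higher. Of 9 antigen presentation genes 5 were higher and 2 lower. *Nlrc5*, the transactivator of MHC class I genes, rose from 100, 78.0 and 95.4 to 1465, 2144 and 2004, and *Tap1*, a peptide transporter, was 2.78-fold higher. *Tapbp*, which holds that transporter to MHC class I, was 4.33-fold lower.

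Most contractile and collagen genes were lower in rho0. Of 22 contractile genes 18 were lower and 0 higher, with a median of -1.10. *Acta2*, smooth muscle actin, was at 11375, 11974 and 11813 normalized counts in TM6 libraries and at 823, 683 and 697 in rho0 libraries (log2 fold change -3.99 ± 0.08 (SE), adjusted p = 1.60e-09). *Cnn1*, calponin, was 17.3-fold lower. Of 29 collagen genes 19 were lower and 4 higher, with a median of -1.37. *Col12a1*, a collagen that sits on fibrils, went from 11091, 11471 and 10859 to 692, 827 and 837, and *Col3a1*, a fibrillar collagen, was 10.2-fold lower. *Col18a1*, a collagen of basement membranes, was 2.80-fold higher, and the call of *Col11a2*, at 1.06, was lost in 7 of 13 alternative fits. In matrix turnover 12 of 29 genes were lower and 4 higher. *Mmp2*, gelatinase A, was at 1599, 1511 and 1414 in TM6 and at 0 in every rho0 library, whereas *Mmp19* was 4.45-fold higher. *Fn1*, named above among the markers, was 2.07-fold higher in rho0. *Postn*, a matrix protein of activated fibroblasts, gave 780, 814 and 709 normalized counts across TM6 and 0.941, 1.13 and 3.37 across rho0.

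Hox genes, which record position along the body axis and the limb, were called in opposite directions at the opposite ends of their clusters. Hox paralogues are numbered from the 3′ end, expressed early and toward the head, to the 5′ end, expressed toward the tail and the limb tips. Of 35 tested, 6 were higher, 14 lower and the median was -0.18, but 6 of 10 genes of paralogues 1 to 4 were higher and 0 lower, 2 of 11 of paralogues 5 to 8 were lower, and 12 of 14 of paralogues 9 to 13 were lower with 0 higher. The medians of these sets were 0.76, close to 0, and -7.14, and the division into sets was chosen after the values were seen. *Hoxd13* was at 1257, 1457 and 1420 across TM6 and at 0 in each rho0 library, at least 407-fold lower. Its neighbours *Hoxd11* and *Hoxd10* were at 412, 320 and 379 and at 190, 150 and 189 in TM6 and also at 0 in rho0. *Hoxa13* did the same on another chromosome, at least 33.8-fold lower, while *Hoxa9*, with 2439, 2169 and 2535 against 2067, 2506 and 2390, overlapped between the lines. At the other end *Hoxb3* was 3.07-fold higher, and *Hoxa2*, at 1.40, lost its call in 5 of 13 alternative fits.

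**Figure D4:**
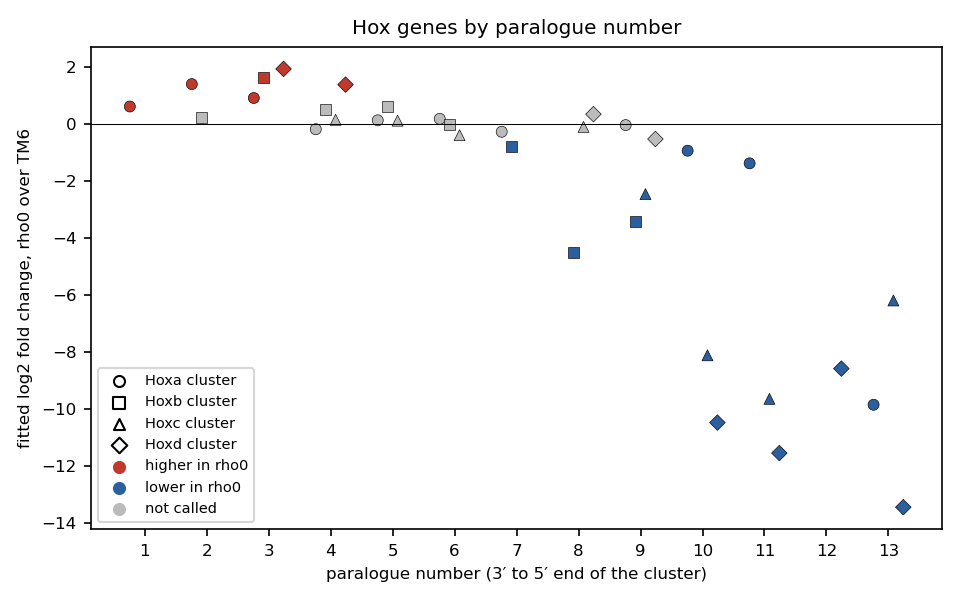
Fitted log2 fold change (rho0 over TM6) of 35 Hox genes against paralogue number, with the cluster as the symbol and the call as the colour. The called genes of paralogues 1 to 4 lie above 0, and those of paralogues 9 to 13 reach -13.43 at *Hoxd13*. Genes at 0 in every rho0 library have fitted values that depend on the prior count.

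Transcription factors of the limb and face were among the genes found in TM6 only. With at most 3 counts in each library of a line and a mean of at least 100 normalized counts in the other, 34 genes were detected in TM6 only and 6 in rho0 only. *Hand2*, a factor of limb bud and heart, was at 1549, 1566 and 1417 across TM6 but at 0 in each rho0 library, at least 446-fold lower. *Pitx1*, which specifies the hindlimb, had 522, 499 and 479 in TM6 and at most 1.12 in rho0. *Tfap2a*, a factor of neural crest, and *Ednrb*, an endothelin receptor, were likewise found in TM6 only. *Sfrp2*, a secreted Wnt modulator, missed the count limit with 1.88, 20.3 and 13.5 in rho0 but was 470-fold lower than the 5701, 5818 and 5258 of TM6. *Rcan2*, an inhibitor of calcineurin, completes the 12 largest losses.

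The largest gains included genes known mainly from other tissues. *Ostn*, which encodes the muscle and bone peptide osteocrin, was at 0 in each TM6 library and at 1054, 1055 and 1069 in rho0, at least 352-fold higher. *Dthd1*, a death domain gene, was at least 88.9-fold higher. *Car6*, a secreted carbonic anhydrase of salivary glands, counted 1.76, 3.9 and 2.01 in the TM6 libraries and 2035, 1972 and 2156 in those of rho0 (normalized counts). *Cdsn*, corneodesmosin of the epidermis, went from 224, 197 and 186 to 19553, 16869 and 16862, the most abundant of the 12 largest gains. *P2rx3*, an ATP-gated channel of sensory neurons, was 151-fold higher. *Extl1*, *Tenm4*, *Mei4*, *Tceal3* and *B4galnt2* were 48.5-fold to 86.1-fold higher, and *Ltbp4*, which binds latent TGF-β in the matrix, was 42.1-fold higher.

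Genes of some chromosomes differed together. On the X chromosome 281 of 451 tested genes were lower and 41 higher, with a median log2 fold change of -0.79. On chromosome 15 the median was -0.40, with 224 of 542 lower, while on chromosome 12 it was 0.53, with 222 of 477 higher, and on chromosome 18 it was 0.40, with 131 of 372 higher. The other autosomes had medians between -0.25 and 0.23. *Xist*, the RNA that silences 1 X chromosome in female cells, was at 39084, 30396 and 38621 normalized counts in TM6 libraries and at 45720, 111350 and 98250 in rho0 libraries, so that the first rho0 library lay nearer to TM6 than to the other 2. Removing the median of each chromosome from its genes left 5193 DEGs, 2506 higher and 2687 lower. Copy number was not measured here, and its part in these medians was not tested.

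**Figure D5:**
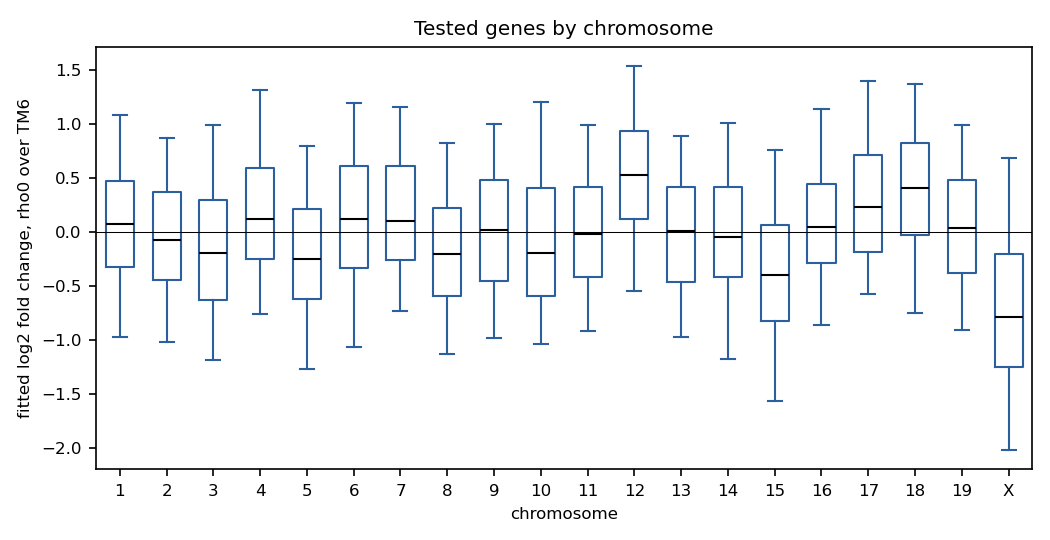
Fitted log2 fold change (rho0 over TM6) of the tested genes on each chromosome, with the median as a line, the box from the lower to the upper quartile and whiskers to the 10th and 90th percentiles. Chromosomes 12 (0.53) and 18 (0.40) lie above the others, and 15 (-0.40) and X (-0.79) below.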

How the data were processed

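RNA-seq of 3 TM6 and 3 rho0 libraries was used. The authors purified RNA with TriZol or the RNeasy Mini Kit, and their methods do not say which library had which. They depleted rRNA from total RNA, made stranded libraries, merged technical duplicates and estimated expression with RSEM 1.2.25 and Bowtie2 on RefSeq transcripts of mm10. The deposited gene table holds expected counts, not normalized (12.7% with decimals), and these were rounded. Levels between genes use the TPM that the authors deposited per library. In R 4.3.3, edgeR 4.0.16 removed genes with few counts (filterByExpr, minimum 10), scaled libraries by TMM and compared the lines with its quasi-likelihood test, and p-values were adjusted by Benjamini-Hochberg over 13636 genes. The standard error is that of the fitted log2 fold change. Folds are ratios of mean normalized counts. Gene lists were described by counts and medians. BLASTN 2.17.0 aligned GENCODE vM21 transcripts of tested genes with those of mtDNA. The procedure was checked on simulated counts.

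The comparison, the gene lists and the rules were chosen with earlier results of these data known. The genes named are the 12 largest differences in each direction (mean of at least 100 normalized counts, no overlap), the 2 largest in each direction in each list, and members picked for their role. *Tm7sf2*, *Fabp4*, the other Hox genes and *Xist* were chosen after their values were seen. Some list members enter the counts and medians but are not reported by name here. Alternatives were DESeq2 (version 1.42.0) size factors and Wald test, no filter on counts, a replicate block, all 12 libraries, chromosome medians removed, *Rn45s* left out, other thresholds and each library left out.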

Additional observations from a re-analysis of the deposited data

How the results depend on the processing

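The number of DEGs stayed within 1.5 times 5679 in the alternative fits: 5753 with DESeq2's size factors, 5997 with no filter on counts, 5902 with 12 libraries, 5193 with chromosome medians removed, 5708 without *Rn45s*, 5584 with DESeq2's Wald test, and 5369 to 6198 when each library was left out. A log2 limit of 1 left 2785 DEGs, 1332 higher and 1453 lower. Same-numbered libraries did not deviate together (correlations of -0.24, -0.42 and 0.19), so the numbers do not pair the lines; with a replicate block there were 5302 DEGs, 2350 higher and 2952 lower. Genes detected in rho0 only numbered 17 with a limit of 10 counts and 3 with 0 counts, and in TM6 only 66 and 12. Of 175 genes that the rule admitted, 155 kept their side of the threshold in all 13 fits, and no called gene among them changed sign. *Tfam*, *Supv3l1*, *Cad*, *Umps* and *Ccnd1*, which were not called, did so in at least 1 fit. Removing chromosome medians ended 13 calls, made 3 and moved 16 of 36 list medians by more than the spread between replicates. That setting shifts the genes of every chromosome by construction, those of chromosomes 12, 15, 18 and X the most. The calls that ended included genes elsewhere, such as *Eif2ak1* on chromosome 5 and *Ndufa7* on chromosome 17. Leaving out the first rho0 library ended the calls of *Ndufa7* (0.44), *Map2* (-0.47) and *Pparg* (0.49). Counting depth limits statements on genes near 0, where a floor of 3 counts applies.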

Other observations

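Gene families chosen after their values were seen add to these groups, and are described by counts alone. Of 65 replication-dependent histone genes 41 were lower in rho0 and 0 higher, with a median log2 fold change of -0.59, beside the lower genes of mitosis. Of 81 cytosolic ribosomal protein genes 18 were higher and 6 lower, with a median of 0.20. Small nucleolar RNAs, which guide the modification of rRNA, were higher in 10 of 25 cases and lower in 0, with a median of 0.81. Zinc finger genes with a Zfp name were higher in 102 of 334 cases and lower in 22, with a median of 0.34. Of 13 genes of the insulin-like growth factor axis 7 were lower and 1 higher, and *Igf1*, the growth factor itself, had 212, 277 and 291 normalized counts in TM6 and 2.82, 1.13 and 0 in rho0. Among transcription factors with a Tbx, Pitx, Irx, Tshz, Hand, Meis or Pbx name 14 of 22 were lower and 3 higher, with a median of -0.77. *Tbx5*, a forelimb factor, was at -0.32 and was not called. *H2-K1*, an MHC class I heavy chain, had 1412, 1475 and 1346 normalized counts in TM6 and 7644, 6841 and 6903 in rho0, a difference in the same direction as that of *Nlrc5*.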
